A study of Mus musculus with 16 samples.

Results

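The genes described here encode the contractile apparatus of striated muscle and its supply: 10 thin filament, 10 thick filament and 3 Z-disc or intermediate filament genes, 4 genes of calcium handling, 4 of oxygen and energy supply and the 4 myogenic regulatory factors. These 35 genes are a given list. They were found by gene symbol among the 8251 genes that have a probe set of 1 symbol on the arrays, and each is represented by its brightest probe set by mean over all arrays. RNA of FACS-sorted mouse thymic cells was measured on 16 arrays, 2 for each of 8 groups. Epithelial cells of the thymic medulla (mTEC) sorted by high surface CD80 (CD80hi) or low surface CD80 (CD80lo) came from wild-type mice and from AIRE k/o mice, called knockout below. The other groups came from wild-type mice only: mTEC not fractionated by CD80, epithelial cells of the cortex (cTEC), and the dendritic cells and macrophages of the thymus. CD80 is a costimulatory protein that increases as mTEC mature. The labels give no strain, no age, no sex, no knockout allele and no number of animals, and they do not say whether separate animals gave the 2 samples of a group. The p-values therefore measure only the spread between these samples, which may be technical.

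In striated muscle, thick filaments of myosin heavy and light chains pull on thin filaments of alpha-actin. Calcium released from the sarcoplasmic reticulum binds troponin C, which together with troponins I and T frees the actin sites for myosin. Fast skeletal, slow skeletal and cardiac muscle use different members of each family, and the myogenic regulatory factors, transcription factors that bind E-box sequences, switch the skeletal program on. Mature mTEC transcribe many genes of other tissues, part of them through the regulator Aire, and so present these proteins to developing T cells. Rare muscle-like (myoid) cells also lie in the thymic medulla, and several striated muscle proteins, cardiac alpha-myosin and the acetylcholine receptor among them, are targets of autoimmune disease.

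The deposited values are linear probe-set signals, with a trimmed mean of 100.1 on each array, and are given below without a unit. Differences are log2 differences of signal + 4.8, and the fit's standard error follows ±. This scale understates changes of dim genes. A gene rose or fell where limma's adjusted p was under 0.05 over all 9319 tested probe sets. Shares of all tested probe sets are of such calls. For the counts at limma's unadjusted p under 0.05 no share is given, so they are not read as an excess. The labelled cell types were checked against marker lists. Epcam and Krt8 read at least 118 and 1977 on every mTEC array, while the medullary keratins Krt5 and Krt14 stayed at or under 18.2 and 15.1 on all 16 arrays. The Aire probe set read 1589 and 1385 for knockout CD80hi cells, against 1829 and 1704 for the wild-type ones, and 127 and 83 against 196 and 94.4 for CD80lo cells. Where it lies in relation to the deletion is not given in the sources used here, and its signal does not check the labels. Array 1 stood apart from array 2 in both knockout groups: the 18S ribosomal control read 562 against 48.2 in CD80hi and 1893 against 287 in CD80lo cells, and 148 to 376 on the wild-type CD80-sorted arrays. The highest signals were 8598 to 13671 on the CD80-sorted arrays and 2518 to 5630 on the unfractionated ones, and no test crosses these sets. Where a level is placed among all 16 arrays or all 8 groups, it is a description alone. Comparisons among the CD80-sorted groups share arrays in part, and their values are set side by side without a test of overlap. In sorted pools, more cells that express a gene and more RNA per cell cannot be told apart.

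The genes had their highest signals in different groups. Of the 35 genes, 30 passed the filter on low values, as did 9319 of 12422 probe sets, and 13 had a group mean above 100. The highest of the 8 group means lay in wild-type CD80hi cells for 11 genes and in knockout CD80lo cells for another 11. It lay in knockout CD80hi cells, in unfractionated mTEC and in dendritic cells for 3 genes each, in wild-type CD80lo cells for 2, and in cTEC and in macrophages for 1 each. Of the 30 genes that passed, 10 exceeded the filter level of 17.3 on at least 1 array of each of the 8 groups. For 2, Myh6 and Pgam2, the arrays above it lay in 1 group alone.

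**Figure D1:**
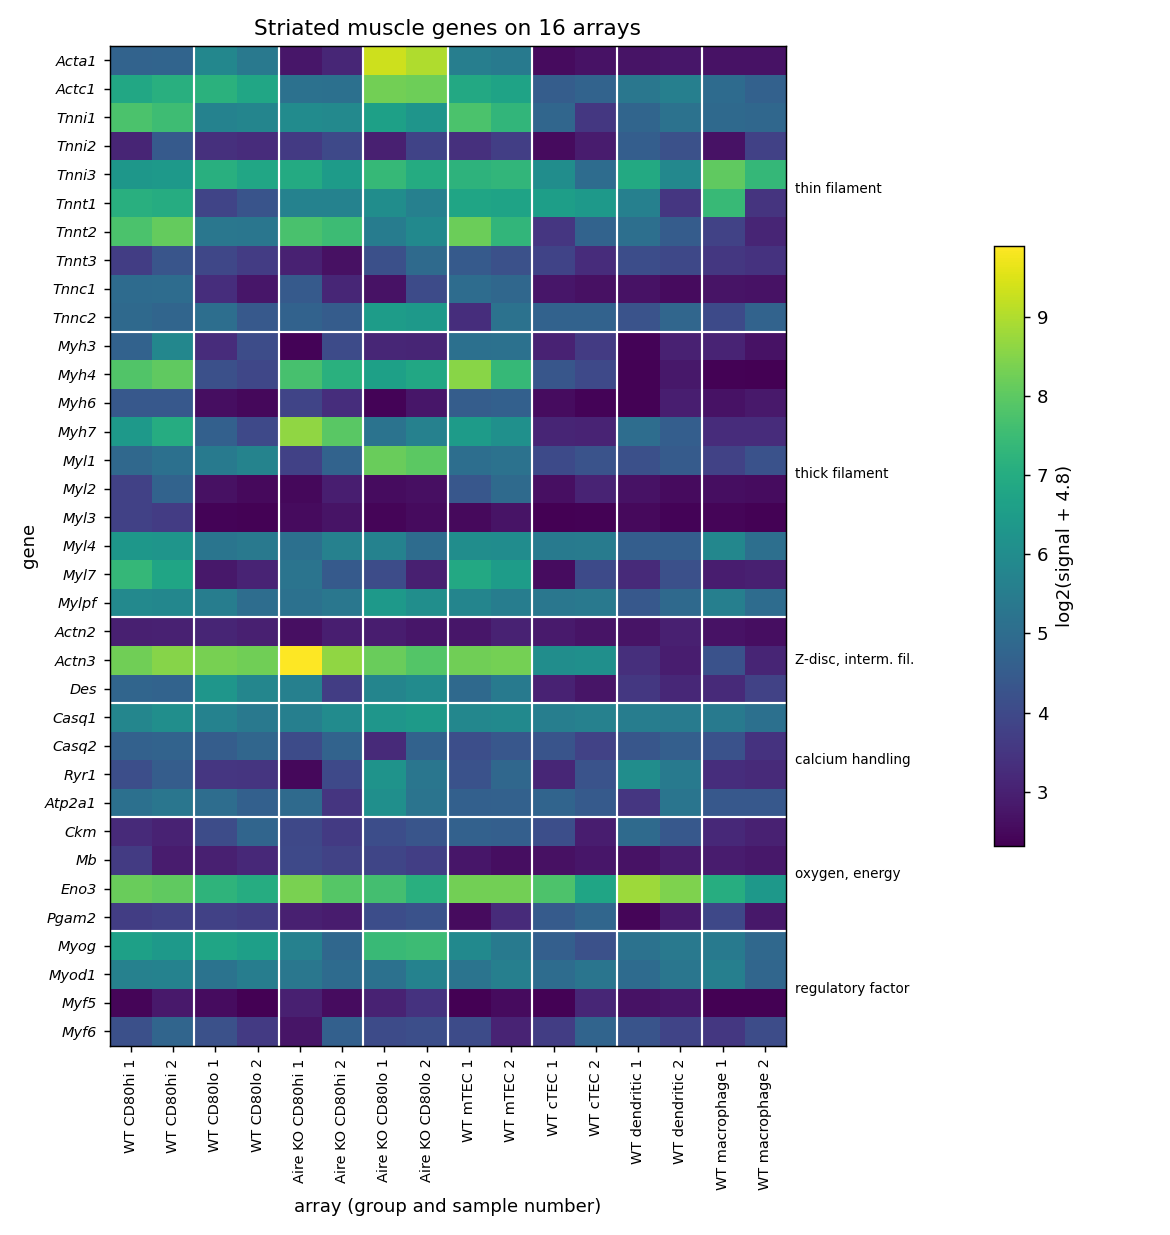
Signal of the 35 genes (rows, ordered by role) on the 16 arrays (columns, by group), as log2 of signal + 4.8. Acta1, Actc1, Myl1 and Myog are brightest on the 2 knockout CD80lo arrays, and Tnni1, Tnnt2, Myh4 and Myl7 are bright in wild-type CD80hi cells and unfractionated mTEC.

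The alpha-actins are the backbone of the thin filament. Acta1 read 21.9 and 22.2 in CD80hi and 52.4 and 37.3 in CD80lo cells of wild-type mice, and 2 and 3.9 in CD80hi and 636 and 508 in CD80lo cells of the knockout. Acta1 read 42.5 and 38.8 in mTEC that were not fractionated, 1 and 1.7 in cTEC, 1.8 and 2.1 in dendritic cells and 1.6 and 1.7 in macrophages. Acta1, the skeletal alpha-actin, was thus highest on both knockout CD80lo arrays and lowest of the CD80-sorted groups on both knockout CD80hi arrays. The Actc1 signals were 110.5 and 133 for wild-type CD80hi, 139 and 106 for wild-type CD80lo, 30.8 and 29.9 for knockout CD80hi and 309 and 294 for knockout CD80lo mTEC. The Actc1 signals without CD80 sorting were 113 and 99.6 for mTEC, 18.8 and 21.6 for cTEC, 35.2 and 43.2 for dendritic cells and 26.4 and 20.5 for macrophages. Actc1, the cardiac alpha-actin, had the same extremes among the CD80-sorted groups, while its wild-type CD80hi and CD80lo arrays overlapped. The brightest Actc1 probe set has an f suffix, which marks probes shared with similar sequences, and its other probe set also has a suffix, i.

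Troponin I is the inhibitory subunit of the troponin complex. Signals of Tnni1 were 210.2 and 180.2 (CD80hi) and 46.4 and 49.4 (CD80lo) in wild-type mice, against 58.6 and 54.2 (CD80hi) and 94.1 and 71.6 (CD80lo) in knockout mice. Without that sort Tnni1 read 211 and 153 (mTEC), 22.8 and 31.6 (dendritic cells), 25.5 and 23.9 (macrophages) and 23.5 and 7 (cTEC). Tnni1, the slow skeletal form, was highest of the CD80-sorted groups in wild-type CD80hi cells and highest of the others in mTEC, with no overlap in either set. For Tnni3 the wild-type arrays gave 75.5 and 80.1 in CD80hi and 131 and 106 in CD80lo cells, and the knockout arrays 118 and 84 in CD80hi and 162 and 120.3 in CD80lo cells. Unsorted by CD80, Tnni3 gave 142 and 154 for mTEC, 60.9 and 27 for cTEC, 117 and 53.2 for dendritic cells and 258 and 159 for macrophages. Tnni3, the cardiac form, overlapped between knockout and wild-type CD80lo cells, and without the sort both macrophage arrays were highest.

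Troponin T ties the complex to tropomyosin. Tnnt1 read 133 and 123 in CD80hi and 9.8 and 14.9 in CD80lo cells of wild-type mice, and 46 and 46.3 in CD80hi and 60.8 and 43.9 in CD80lo cells of the knockout. Tnnt1 read 105 and 100.4 in mTEC that were not fractionated, 89.6 and 80.9 in cTEC, 44.6 and 6.6 in dendritic cells and 166 and 6.2 in macrophages. Tnnt1, the slow skeletal form, was lowest of the CD80-sorted groups on both wild-type CD80lo arrays. Its 2 arrays differed widely in dendritic cells and in macrophages. The Tnnt2 signals were 212 and 272 for wild-type CD80hi, 35.3 and 34.6 for wild-type CD80lo, 206 and 178 for knockout CD80hi and 40.9 and 56.1 for knockout CD80lo mTEC. The Tnnt2 signals without CD80 sorting were 289 and 153 for mTEC, 6.7 and 21.9 for cTEC, 29.2 and 18.4 for dendritic cells and 9.2 and 3.8 for macrophages. Tnnt2, the cardiac form, was high in CD80hi cells of both genotypes and in unfractionated mTEC. Signals of Tnnt3 were 8.2 and 15.1 (CD80hi) and 10.4 and 7.9 (CD80lo) in wild-type mice, against 3.3 and 1.5 (CD80hi) and 13.3 and 25.8 (CD80lo) in knockout mice. Without that sort Tnnt3 read 17.4 and 13.7 (mTEC), 12.5 and 10.8 (dendritic cells), 7 and 6 (macrophages) and 9.5 and 4.9 (cTEC). Tnnt3, the fast skeletal form, was dim everywhere, with its highest group mean in knockout CD80lo cells.

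Troponin C is the calcium sensor. For Tnnc1 the wild-type arrays gave 26.4 and 27.1 in CD80hi and 5.2 and 2.1 in CD80lo cells, and the knockout arrays 17.4 and 3.9 in CD80hi and 1.7 and 11.8 in CD80lo cells. Unsorted by CD80, Tnnc1 gave 27.3 and 24.3 for mTEC, 2.1 and 1.5 for cTEC, 1.6 and 1 for dendritic cells and 1.8 and 1.7 for macrophages. Tnnc1, used in slow and cardiac muscle, was above 20 on the wild-type CD80hi and unfractionated mTEC arrays and on no other. Tnnc2 read 25.4 and 22.8 in CD80hi and 28.7 and 17 in CD80lo cells of wild-type mice, and 21.2 and 18.2 in CD80hi and 86.2 and 80.1 in CD80lo cells of the knockout. Tnnc2 read 5.1 and 31 in mTEC that were not fractionated, 21.4 and 21.5 in cTEC, 14.4 and 23.5 in dendritic cells and 11.5 and 22 in macrophages. Tnnc2, the fast skeletal form, stood out in knockout CD80lo cells. Its other probe set stayed between 0.5 and 4.5 on all 16 arrays, and the brightest one has an f suffix, which marks probes shared with similar sequences.

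The myosin heavy chains are the motors of the thick filament. The Myh4 signals were 224 and 261 for wild-type CD80hi, 13.1 and 10.4 for wild-type CD80lo, 200.4 and 134 for knockout CD80hi and 93.1 and 112 for knockout CD80lo mTEC. The Myh4 signals without CD80 sorting were 370.3 and 162 for mTEC, 15.5 and 11.1 for cTEC, 0.4 and 2.2 for dendritic cells and 0.4 and 0.2 for macrophages. Myh4, the fast IIb chain of adult limb muscle, was lowest of the CD80-sorted groups in wild-type CD80lo cells and near 0 in dendritic cells and macrophages. Its other probe set did not pass the filter and stayed between 1.5 and 14 on all arrays, with 3.6 and 2.3 in wild-type CD80hi and 3.7 and 13.1 in wild-type CD80lo cells. Signals of Myh7 were 79.7 and 124 (CD80hi) and 20.4 and 11.2 (CD80lo) in wild-type mice, against 394 and 242 (CD80hi) and 32 and 45.5 (CD80lo) in knockout mice. Without that sort Myh7 read 84 and 64.5 (mTEC), 27.6 and 19 (dendritic cells), 4.9 and 4.9 (macrophages) and 3.8 and 3.7 (cTEC). Myh7, the slow and ventricular beta chain, was highest on both knockout CD80hi arrays. Its brightest probe set also has an f suffix, and its other probe set stayed between 3.1 and 10. For Myh3 the wild-type arrays gave 21.4 and 52.1 in CD80hi and 4.9 and 12 in CD80lo cells, and the knockout arrays 0.5 and 11.9 in CD80hi and 3.9 and 3.8 in CD80lo cells. Unsorted by CD80, Myh3 gave 29.7 and 30.7 for mTEC, 3.5 and 7.6 for cTEC, 0.5 and 3.3 for dendritic cells and 3.6 and 1.6 for macrophages. Myh3, the embryonic chain, and Myh6, the cardiac alpha chain, had their signal in wild-type CD80hi cells and unfractionated mTEC. Myh6 read 16.6 and 16.2 in CD80hi and 1.3 and 0.8 in CD80lo cells of wild-type mice, and 10 and 5.2 in CD80hi and 0.5 and 2.1 in CD80lo cells of the knockout. Myh6 read 18.9 and 20.3 in mTEC that were not fractionated, 1.1 and 0.5 in cTEC, 0.4 and 2.9 in dendritic cells and 1.6 and 2.4 in macrophages. Myh6 stayed at or under 20.3 on all arrays.

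The light chains stabilise and regulate the myosin neck. The Myl1 signals were 24.6 and 30.1 for wild-type CD80hi, 38.4 and 47.4 for wild-type CD80lo, 9.1 and 21.6 for knockout CD80hi and 279.7 and 251 for knockout CD80lo mTEC. The Myl1 signals without CD80 sorting were 28.6 and 31.2 for mTEC, 11.6 and 14.3 for cTEC, 13.2 and 17.7 for dendritic cells and 9.4 and 13.9 for macrophages. Myl1, the fast essential light chain, was highest in knockout CD80lo cells by a wide margin. Signals of Mylpf were 54.9 and 52 (CD80hi) and 41.5 and 27.5 (CD80lo) in wild-type mice, against 30.7 and 35.1 (CD80hi) and 78.2 and 61.8 (CD80lo) in knockout mice. Without that sort Mylpf read 50 and 41.1 (mTEC), 16.2 and 25 (dendritic cells), 43.7 and 27.4 (macrophages) and 34.9 and 37.2 (cTEC). Mylpf, the fast regulatory light chain, also had both of its highest arrays in that group. For Myl7 the wild-type arrays gave 160.1 and 104 in CD80hi and 2.2 and 3.7 in CD80lo cells, and the knockout arrays 33 and 17.2 in CD80hi and 12.2 and 3.1 in CD80lo cells. Unsorted by CD80, Myl7 gave 114 and 85.7 for mTEC, 1.2 and 11.3 for cTEC, 4.6 and 13.3 for dendritic cells and 2.8 and 3.1 for macrophages. Myl7, the atrial regulatory light chain, was at 3.7 or lower on both wild-type CD80lo arrays and at 85.7 or higher on the wild-type CD80hi and unfractionated mTEC arrays. Myl4 read 75.8 and 72.9 in CD80hi and 33.3 and 37 in CD80lo cells of wild-type mice, and 29.9 and 45.5 in CD80hi and 45.9 and 27.3 in CD80lo cells of the knockout. Myl4 read 60.5 and 59.6 in mTEC that were not fractionated, 37.7 and 39.9 in cTEC, 19.2 and 19.4 in dendritic cells and 51.4 and 29.5 in macrophages. Myl4, the atrial and embryonic essential light chain, was highest on both wild-type CD80hi arrays. The Myl2 signals were 9 and 21.8 for wild-type CD80hi, 1.5 and 0.9 for wild-type CD80lo, 0.8 and 2.9 for knockout CD80hi and 1.2 and 1.4 for knockout CD80lo mTEC. The Myl2 signals without CD80 sorting were 15.8 and 25.6 for mTEC, 1.4 and 3.7 for cTEC, 1.6 and 1 for dendritic cells and 1.3 and 1.2 for macrophages. Myl2, the slow and ventricular regulatory light chain, was at or under 3.7 outside wild-type CD80hi cells and unfractionated mTEC.

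Actn3 and Des organise the sarcomere at the Z-disc. Signals of Actn3 were 302 and 363 (CD80hi) and 322 and 300 (CD80lo) in wild-type mice, against 945 and 395 (CD80hi) and 279 and 226 (CD80lo) in knockout mice. Without that sort Actn3 read 298 and 310.5 (mTEC), 5.4 and 2.8 (dendritic cells), 14.1 and 3.8 (macrophages) and 60.2 and 63 (cTEC). Actn3, the alpha-actinin of fast fibres, was high in all mTEC groups, with 1 knockout CD80hi array far above the rest, and lower in cTEC. For Des the wild-type arrays gave 23 and 21.7 in CD80hi and 74.5 and 51.2 in CD80lo cells, and the knockout arrays 44.4 and 8.2 in CD80hi and 49.2 and 58.6 in CD80lo cells. Unsorted by CD80, Des gave 25 and 37.6 for mTEC, 3.5 and 1.9 for cTEC, 6.9 and 4.2 for dendritic cells and 4.6 and 9.3 for macrophages. Des, desmin, the intermediate filament of muscle, is also made by smooth muscle, and both wild-type CD80lo arrays lay above both CD80hi arrays. The knockout CD80hi arrays of Des lay far apart.

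Calcium release and uptake drive each contraction. Ryr1 read 12.9 and 18.7 in CD80hi and 6.6 and 6.4 in CD80lo cells of wild-type mice, and 0.8 and 11.1 in CD80hi and 68.8 and 34.5 in CD80lo cells of the knockout. Ryr1 read 13.9 and 24 in mTEC that were not fractionated, 3.9 and 14.5 in cTEC, 60.8 and 37.6 in dendritic cells and 5.1 and 4.6 in macrophages. Ryr1, the calcium release channel of skeletal muscle, was highest of the CD80-sorted groups in knockout CD80lo cells and highest of the others in dendritic cells. The Casq1 signals were 51 and 61.5 for wild-type CD80hi, 46.7 and 36.8 for wild-type CD80lo, 43.4 and 58.2 for knockout CD80hi and 73.8 and 83 for knockout CD80lo mTEC. The Casq1 signals without CD80 sorting were 51.5 and 55.6 for mTEC, 42.7 and 45.4 for cTEC, 41 and 40 for dendritic cells and 37.8 and 29.6 for macrophages. Casq1, the calcium-storing calsequestrin of skeletal muscle, stayed between 29.6 and 83 on all arrays. Signals of Atp2a1 were 29.6 and 34.7 (CD80hi) and 28.1 and 20.1 (CD80lo) in wild-type mice, against 25.9 and 6.4 (CD80hi) and 62.9 and 32.6 (CD80lo) in knockout mice. Without that sort Atp2a1 read 20 and 20.8 (mTEC), 6.7 and 33.9 (dendritic cells), 16.3 and 16.3 (macrophages) and 22.2 and 17.1 (cTEC). Atp2a1, the calcium pump of fast fibres, had a wide spread between the 2 arrays of several groups. Casq2, the cardiac calsequestrin, ranged from 4.6 to 23.2 over the 16 arrays.

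Glycolytic enzymes and creatine kinase supply energy for contraction. For Eno3 the wild-type arrays gave 284 and 259.7 in CD80hi and 146 and 125 in CD80lo cells, and the knockout arrays 323 and 235 in CD80hi and 194 and 132 in CD80lo cells. Unsorted by CD80, Eno3 gave 309 and 305 for mTEC, 214 and 105 for cTEC, 436 and 339.9 for dendritic cells and 127 and 76.8 for macrophages. Eno3, the muscle enolase of glycolysis, was highest in dendritic cells. Pgam2 read 8.2 and 8.9 in CD80hi and 9 and 8.3 in CD80lo cells of wild-type mice, and 3.2 and 2.6 in CD80hi and 12.4 and 13.8 in CD80lo cells of the knockout. Pgam2 read 1 and 4.7 in mTEC that were not fractionated, 17.7 and 23.2 in cTEC, 0.6 and 2.5 in dendritic cells and 10.9 and 2.2 in macrophages. Pgam2, the muscle phosphoglycerate mutase, peaked in cTEC at a low level. The Ckm signals were 4.5 and 3.5 for wild-type CD80hi, 12 and 22.8 for wild-type CD80lo, 10.8 and 7.5 for knockout CD80hi and 12.5 and 15.3 for knockout CD80lo mTEC. The Ckm signals without CD80 sorting were 20.5 and 19.6 for mTEC, 12.8 and 2.8 for cTEC, 26.1 and 16.6 for dendritic cells and 4.3 and 3.3 for macrophages. Ckm, the muscle creatine kinase, stayed at or under 26.1 on every array.

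The myogenic regulatory factors start and complete the muscle program. Signals of Myog were 93.3 and 80.7 (CD80hi) and 104 and 91.9 (CD80lo) in wild-type mice, against 45.2 and 23.9 (CD80hi) and 172 and 179 (CD80lo) in knockout mice. Without that sort Myog read 55 and 38.5 (mTEC), 31.7 and 36.5 (dendritic cells), 38.4 and 24.6 (macrophages) and 19.8 and 13.5 (cTEC). Myog, myogenin, which drives terminal differentiation, was highest on both knockout CD80lo arrays. For Myod1 the wild-type arrays gave 45.2 and 46.4 in CD80hi and 32 and 41.5 in CD80lo cells, and the knockout arrays 35.2 and 26.3 in CD80hi and 30.9 and 46.2 in CD80lo cells. Unsorted by CD80, Myod1 gave 32.5 and 43.5 for mTEC, 27 and 33.7 for cTEC, 26.7 and 34.6 for dendritic cells and 43.5 and 23.3 for macrophages. Myod1, the determination factor MyoD, stayed between 23.3 and 46.4 on all arrays, with groups that overlapped. Myf6 read 13.3 and 22.7 in CD80hi and 13.6 and 7.4 in CD80lo cells of wild-type mice, and 1.9 and 20.4 in CD80hi and 11.9 and 12.7 in CD80lo cells of the knockout. Myf6 read 11.9 and 3.7 in mTEC that were not fractionated, 8.3 and 22.1 in cTEC, 14.8 and 9.8 in dendritic cells and 7 and 12.3 in macrophages. Myf6 was dim and variable. The Myf5 signals were 0.6 and 2.4 for wild-type CD80hi, 1.2 and 0.2 for wild-type CD80lo, 3.2 and 1.2 for knockout CD80hi and 3.4 and 5.9 for knockout CD80lo mTEC. The Myf5 signals without CD80 sorting were 0.2 and 1 for mTEC, 0.4 and 4 for cTEC, 1.7 and 2.1 for dendritic cells and 0.2 and 0.3 for macrophages. Myf5, which marks muscle precursors, was thus at or under 5.9 on every array. Myf5, Tnni2 (fast troponin I, up to 19), Myl3 (ventricular essential light chain, up to 9), Actn2 (alpha-actinin of all striated muscle, up to 3.8) and Mb (myoglobin, up to 11.2) did not pass the filter and were not tested.

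In wild-type mTEC, 9 of the 30 tested genes rose from CD80lo to CD80hi cells and 0 fell by limma (at an unadjusted p under 0.05, 12 were higher and 3 lower). Over all tested probe sets 7.98% rose and 4.74% fell. Of the 9, 8 are forms of slow or cardiac muscle. Myl7 differed by 4.11 ± 0.53, adjusted p = 0.000142, and Myh4 by 3.9 ± 0.39, adjusted p = 2.37e-05. The troponins Tnni1 (1.92 ± 0.38), Tnnt1 (2.97 ± 0.9), Tnnt2 (2.62 ± 0.44) and Tnnc1 (1.93 ± 0.5) also rose, as did the heavy chains Myh7 (2.38 ± 0.37) and Myh6 (1.86 ± 0.38) and the light chain Myl2 (1.68 ± 0.42). By muscle type, all 5 tested slow genes, 3 of 7 cardiac genes and 1 of 8 fast genes rose, with the types overlapping in use. Myl2, 1 of these 5, passed the filter on low values through CD80hi array 2 and unfractionated mTEC array 2 alone. Its call in the group where it is high adds no support.

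The other tested genes did not pass. The skeletal actin Acta1 differed by -0.87 ± 0.32, adjusted p = 0.0973, and Actc1 by 0.0 ± 0.29, adjusted p = 0.996. Myog and Actn3 differed by -0.16 ± 0.35 and 0.09 ± 0.42. The 30 differences had a median of 0.48, beside -0.04 over all probe sets. Leaving out any of the 4 arrays ended the calls of Tnnt1 and Tnnc1 (adjusted p up to 0.209 and 0.161), and leaving out CD80hi array 2 or either CD80lo array ended that of Myl2 (up to 0.193). Tnnt1 was also lost with a constant of 1, without the filter or as the mean of its probe sets (up to 0.0615). The second Tnnt1 probe set differed by 0.3 (adjusted p = 0.688), and a second probe set of Myl4 rose by 1.63 (adjusted p = 0.00703), where its brightest differed by 0.99 ± 0.34, adjusted p = 0.0797.

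Markers of other cell types moved with this sort in both directions. Of the 7 macrophage markers, Csf1r, Marco, Mrc1 and Lyz2 rose with the 9 genes and 0 fell by limma (median difference 2.08). They summed to 995 and 885 in CD80hi and 139 and 129 in CD80lo cells, against 6990 and 11082 on the macrophage arrays. Of the defining markers that were not called, Adgre1 read 4.3 and 14.6 in CD80hi against 2.3 and 2.4 in CD80lo cells, and C1qa 68.9 and 52.9 against 31.2 and 30.5. Marco was higher in unfractionated mTEC than on the macrophage and dendritic cell arrays, so it does not mark macrophages in these data. Of the 8 smooth muscle and pericyte markers, Acta2, Tagln and Myl9 fell and Cnn1 rose, with a median difference of -0.09. Their sum was 1012 and 957 in CD80hi and 3090 and 2548 in CD80lo cells, and Acta2 read 122 and 144 against 1084 and 966. The fibroblast markers Col3a1 and Dcn (2 of 6) and the endothelial markers Cdh5 and Selp (2 of 7) fell. The part of such cells in these differences was not tested.

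**Figure D2:**
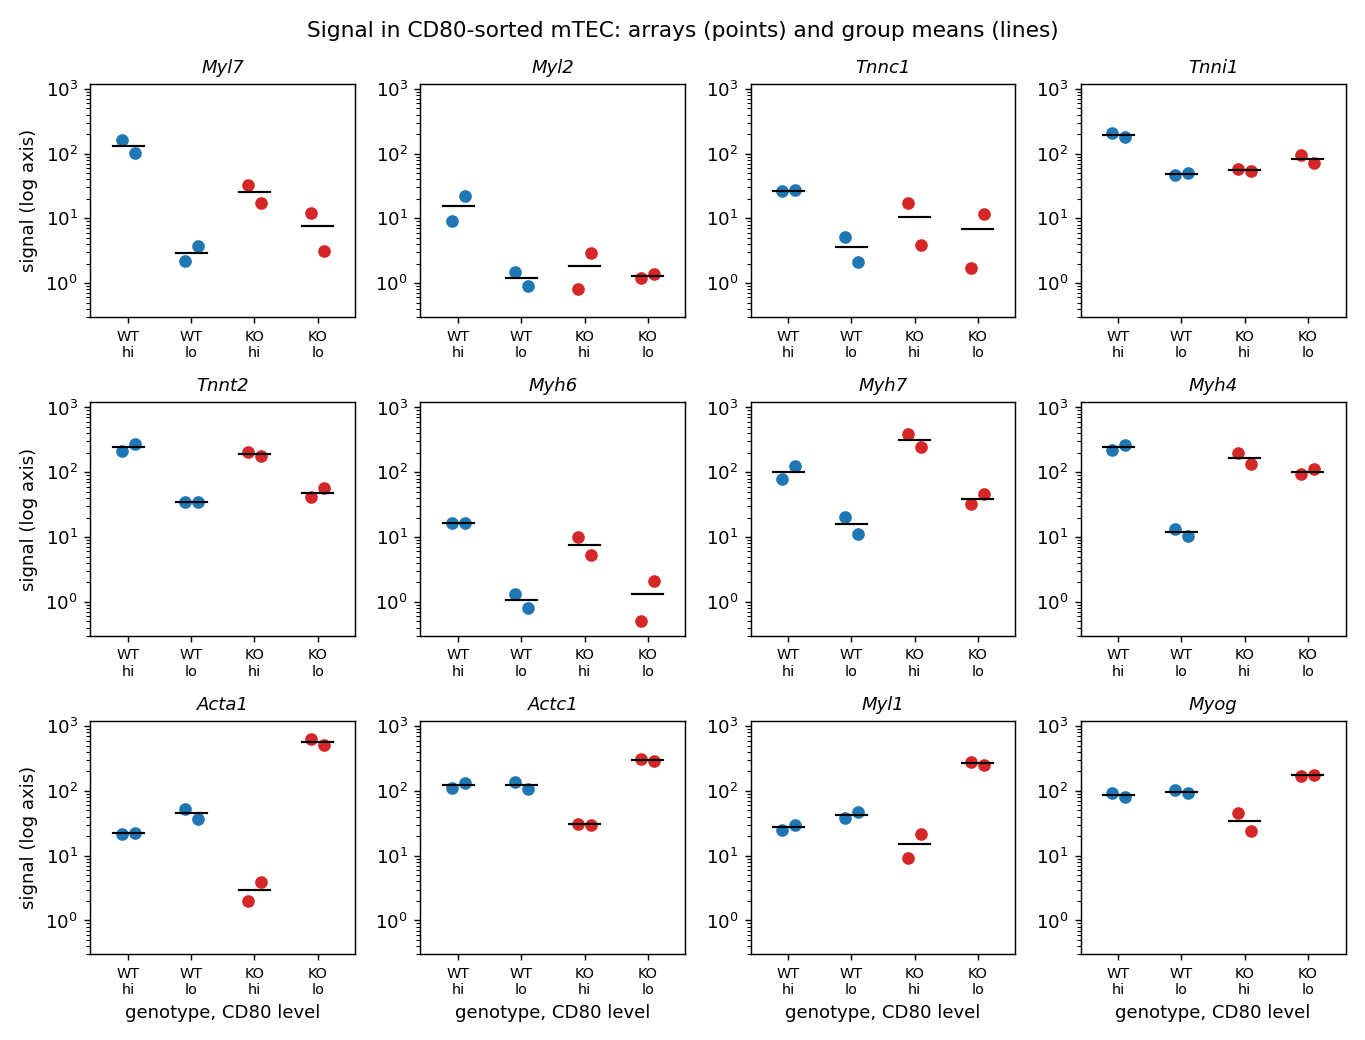
Signal (y axis, log scale) of 12 of the genes on the 8 CD80-sorted arrays (x axis, by genotype and CD80 level), with wild type in blue, the knockout in red, 2 points a group and a line at their mean. Acta1 runs from 2 and 3.9 in knockout CD80hi to 636 and 508 in knockout CD80lo cells, and Myl7 from 2.2 and 3.7 in wild-type CD80lo to 160.1 and 104 in wild-type CD80hi cells.

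In CD80hi mTEC, 4 of the 30 genes were lower in the knockout and 1 was higher. Over all tested probe sets 2.88% were lower and 0.172% higher. Both actins fell, Acta1 with a difference of -1.8 ± 0.32, adjusted p = 0.00556, and Actc1 with -1.84 ± 0.29, adjusted p = 0.00257. The slow troponin I gene Tnni1 fell (-1.71 ± 0.38, adjusted p = 0.0237), as did the atrial light chain Myl7 (-2.21 ± 0.53, adjusted p = 0.0352). Myh7 was higher in the knockout, by 1.59 ± 0.37, adjusted p = 0.0321. Of the 9 genes that rose with CD80 in wild type, Tnnt2 (-0.32 ± 0.44), Myh4 (-0.55 ± 0.39), Myh6 (-0.8 ± 0.38), Tnnt1 (-1.38 ± 0.9), Tnnc1 (-1.18 ± 0.5) and Myl2 (-1.54 ± 0.42) did not pass. Myh3 and Myog, at -2.04 ± 0.55 and -1.27 ± 0.35, also missed the threshold, with adjusted p of 0.0638 and 0.0718. The median of the 30 differences was -0.78, beside -0.05 over all probe sets.

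None of these 5 calls held without each array in turn. Myl7 and Tnni1 were lost without any of the 4 arrays (adjusted p up to 0.345 and 0.238), Acta1 and Myh7 without knockout array 1, wild-type array 1 or wild-type array 2 (up to 0.0685 and 0.371), and Actc1 without wild-type array 2 (0.0536). A constant of 1 also ended those of Tnni1, Myh7 and Myl7, the fit on the groups compared those of Acta1 and Myh7, and leaving out array 1 of both knockout groups all but that of Actc1 (adjusted p over these settings up to 0.073 for Acta1, 0.121 for Tnni1, 0.25 for Myh7 and 0.19 for Myl7). A second probe set of Actc1 differed by -2.63 (adjusted p = 0.00435), and one of Myl4 by -1.89 (adjusted p = 0.00784). Smooth muscle markers read 685 and 627 in sum in knockout CD80hi cells, against 1012 and 957 in wild type, and 2 of 8 fell, Acta2 and Cnn1. Of the 7 macrophage markers 1 fell, Marco, which was higher in unfractionated mTEC than on the macrophage arrays. The 7 macrophage markers summed to 800 and 711 in the knockout against 995 and 885. Their part in these differences was not tested.

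In CD80lo mTEC, 3 of the 30 genes were higher in the knockout and 0 lower by limma, beside 0.279% higher and 0.0429% lower of all tested probe sets. At limma's unadjusted p under 0.05, 10 were higher and 0 lower, a level at which no share of all probe sets is given. Acta1 read 636 and 508 in knockout and 52.4 and 37.3 in wild-type CD80lo cells, and differed by 3.55 ± 0.32, adjusted p = 0.000233. Myl1 read 279.7 and 251 against 38.4 and 47.4 (2.51 ± 0.35, adjusted p = 0.00463), and Myh4 93.1 and 112 against 13.1 and 10.4 (2.69 ± 0.39, adjusted p = 0.00543). In each the knockout arrays lay above the wild-type ones. Further genes had higher knockout arrays without passing: Ryr1 (2.25 ± 0.53, adjusted p = 0.136), Tnnt1 (1.74 ± 0.9, adjusted p = 0.959), Tnnc2 (1.7 ± 0.5, adjusted p = 0.347), Actc1 (1.28 ± 0.29, adjusted p = 0.107), Myh7 (1.1 ± 0.37, adjusted p = 0.536), Mylpf (0.94 ± 0.33, adjusted p = 0.577), Casq1 (0.84 ± 0.29, adjusted p = 0.564), Myog (0.81 ± 0.35, adjusted p = 0.842), Atp2a1 (0.81 ± 0.55) and Tnnt3 (0.76 ± 0.39). Tnni1 (0.72 ± 0.38) and Tnnt2 (0.41 ± 0.44) also had both knockout arrays above the wild-type ones without passing. So did the dim Pgam2, with 12.4 and 13.8 against 9 and 8.3. Tnni3 (0.23 ± 0.42) and Des (-0.19 ± 0.51) had arrays that overlapped and did not pass either. Actn3 (-0.3 ± 0.42) and Myh3 (-0.56 ± 0.55) had both knockout arrays below the wild-type ones, and Casq2 differed by -0.72 ± 0.47, also without passing. No share of all probe sets with arrays apart is given. The median of the 30 differences was 0.5, beside -0.05 over all probe sets.

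The call of Acta1 held without each array in turn and under the other settings run. That of Myh4 was lost without knockout array 2 or either of the wild-type ones (adjusted p up to 0.118), and that of Myl1 without knockout array 1 or either of the wild-type ones (up to 0.0872). Without array 1 of both knockout groups, where the 18S control was high, the 3 calls were kept. The 8 smooth muscle and pericyte markers summed to 2652 and 2361 in knockout and 3090 and 2548 in wild-type CD80lo cells, and limma called 0 of the 8. Fibroblast markers summed to 1197 and 1757 against 1301 and 1025, and endothelial markers to 157 and 591 against 715 and 442. Other sums were higher on both knockout arrays. Medullary markers read 1751 and 505 against 337 and 240, and macrophage markers 287 and 289 against 139 and 129. Epithelial markers read 7313 and 5322 against 4417 and 3860. Limma called 0 of the tested genes of these sets. What other cells add to the CD80lo differences was not tested. Of Pax3 and Cdh15, genes of muscle precursors, and Musk, a receptor kinase of the neuromuscular junction, none passed the filter, and their sum was 24.4 and 14 against 7.2 and 13.4. A second probe set of Ckm was higher by 1.83 (adjusted p = 0.043), where the brighter one differed by -0.21 ± 0.43, adjusted p = 0.999. The second one has an f suffix and passed the filter on low values through the 2 knockout CD80lo arrays alone (24.3 and 18.9). It is high in that group, so its call adds no support.

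The start regions of 7 genes are shown for the groups in which they were brightest: Acta1, Actc1, Myl1 and Myog in knockout CD80lo cells, and Myl7, Tnnc1 and Myh4 in wild-type CD80hi cells or unfractionated mTEC. Each is the 250 bases before the annotated start, from RefSeq on build GRCm38.p6, given 5′ to 3′ on the gene's strand: Acta1 at chr8:123894776-123895025 (minus strand), Actc1 at chr2:114052876-114053125 (minus strand), Myl1 at chr1:66945057-66945306 (minus strand), Myog at chr1:134289754-134290003 (plus strand), Myl7 at chr11:5898783-5899032 (minus strand), Tnnc1 at chr14:31208062-31208311 (plus strand) and Myh4 at chr11:67237562-67237811 (plus strand). Capitals mark matches to the E-box CANNTG, to the MEF2 motif and to the CArG box, the motif of serum response factor, searched on both strands, where matches may overlap.
Acta1: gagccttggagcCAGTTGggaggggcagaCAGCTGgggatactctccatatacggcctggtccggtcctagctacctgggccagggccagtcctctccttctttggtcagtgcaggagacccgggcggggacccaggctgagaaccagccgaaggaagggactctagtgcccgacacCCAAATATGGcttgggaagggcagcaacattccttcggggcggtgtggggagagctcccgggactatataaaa
Actc1: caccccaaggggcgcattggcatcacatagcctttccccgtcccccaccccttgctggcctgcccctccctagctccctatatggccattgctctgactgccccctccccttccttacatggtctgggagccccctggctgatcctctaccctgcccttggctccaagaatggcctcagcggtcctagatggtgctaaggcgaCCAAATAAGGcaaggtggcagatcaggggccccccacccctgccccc
Myl1: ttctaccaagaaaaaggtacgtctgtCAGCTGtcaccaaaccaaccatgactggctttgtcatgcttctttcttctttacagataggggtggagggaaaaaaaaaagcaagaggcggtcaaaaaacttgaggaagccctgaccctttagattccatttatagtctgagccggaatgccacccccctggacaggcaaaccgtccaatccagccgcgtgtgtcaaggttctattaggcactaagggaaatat
Myog: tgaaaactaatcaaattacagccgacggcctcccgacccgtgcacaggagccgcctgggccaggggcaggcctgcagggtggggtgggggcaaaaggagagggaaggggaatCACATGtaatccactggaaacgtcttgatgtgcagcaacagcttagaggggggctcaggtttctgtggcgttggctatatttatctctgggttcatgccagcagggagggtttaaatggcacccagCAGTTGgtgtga
Myl7: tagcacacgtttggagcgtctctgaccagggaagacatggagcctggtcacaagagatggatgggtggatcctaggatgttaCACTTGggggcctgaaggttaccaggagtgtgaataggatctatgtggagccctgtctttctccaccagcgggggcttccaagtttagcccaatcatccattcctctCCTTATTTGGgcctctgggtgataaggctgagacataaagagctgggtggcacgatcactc
Tnnc1: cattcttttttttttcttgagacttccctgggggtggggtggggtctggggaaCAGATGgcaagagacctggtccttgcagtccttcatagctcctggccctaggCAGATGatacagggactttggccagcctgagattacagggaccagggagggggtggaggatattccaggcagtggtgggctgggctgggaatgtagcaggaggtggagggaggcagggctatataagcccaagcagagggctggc
Myh4: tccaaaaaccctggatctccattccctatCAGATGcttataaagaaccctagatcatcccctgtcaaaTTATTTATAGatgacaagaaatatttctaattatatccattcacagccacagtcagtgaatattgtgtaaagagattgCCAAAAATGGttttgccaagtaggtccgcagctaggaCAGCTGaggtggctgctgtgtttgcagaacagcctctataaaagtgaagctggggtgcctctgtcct
Promoters were found for 30 of the 35 genes. An E-box lay in a window of 26 of these 30 (86.7%) and in 66.2% of the 32851 windows of all genes, some genes having more than 1 window. A CArG box lay in 5 genes (16.7%), Acta1, Actc1, Myl3, Myl7 and Myh4, and in 1.47% of all windows. The MEF2 motif lay in 3 genes (10%), Casq2, Pgam2 and Myh4, and in 1.69% of all windows. The TATAAA sequence, not in capitals, lay in 6 genes (20%) and in 12.4% of all windows. The genes with a CArG box include both actins, brightest in knockout CD80lo cells, and Myl7, which read 12.2 and 3.1 there. A match describes letters in this window alone.

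Within the knockout, 2 of the 30 genes rose from CD80lo to CD80hi cells and 7 fell, beside 5.93% and 6.87% of all tested probe sets. By muscle type the falls were of 3 fast skeletal genes, 3 shared genes and 1 cardiac gene: Acta1 (-6.22 ± 0.32, adjusted p = 1.45e-07), Myl1 (-3.81 ± 0.35, adjusted p = 1.38e-05), Actc1 (-3.12 ± 0.29, adjusted p = 1.38e-05), Ryr1 (-2.51 ± 0.53, adjusted p = 0.00563), Myog (-2.25 ± 0.35, adjusted p = 0.000663), Tnnc2 (-1.85 ± 0.5, adjusted p = 0.0243) and Tnnt3 (-1.72 ± 0.39, adjusted p = 0.00933). Tnnt3 passed the filter on low values through knockout CD80lo array 2 and unfractionated mTEC array 1 alone, so its call adds no support. Myh7 (2.87 ± 0.37, adjusted p = 0.000187) and Tnnt2 (1.89 ± 0.44, adjusted p = 0.0103) rose. Both had also risen in wild type. Myh4, Tnni1, Myl7 and Tnnt1 had risen in wild type, and in the knockout they differed by 0.66 ± 0.39, -0.51 ± 0.38, 1.32 ± 0.53 and -0.15 ± 0.9, with no call. Myh6 (1.01 ± 0.38), Tnnc1 (0.42 ± 0.5) and Myl2 (0.11 ± 0.42), which had also risen in wild type, were not called in the knockout either. Actn3 differed by 1.27 ± 0.42, adjusted p = 0.0666, with 945 and 395 on the CD80hi arrays.

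The calls of Acta1, Actc1, Myl1, Myog and Myh7 held without each array. Tnnc2 was lost without any of the 4 (adjusted p up to 0.124), Tnnt3 without array 2 of either group (0.0822), and Tnnt2 and Ryr1 without array 1 of either group (0.0833 and 0.0687). Without array 1 of both groups the adjusted p was up to 0.214 for Tnnt2 and 0.284 for Ryr1, and Tnnc2 (up to 0.202) was lost too, also with a constant of 1; the fit on the groups compared ended Ryr1 and Tnnt3 (up to 0.0974). The smooth muscle sums were lower with these genes, 685 and 627 in CD80hi against 2652 and 2361 in CD80lo cells, and Acta2, the smooth muscle actin, fell (-4.27 ± 0.4, adjusted p = 1.63e-05). In wild type Acta2 also fell (-2.9 ± 0.4, adjusted p = 0.00026), where Acta1 and Myl1 differed by -0.87 ± 0.32 and -0.57 ± 0.35. The macrophage markers Cd68 and Mrc1 (2 of 7) rose, with sums of 800 and 711 in CD80hi and 287 and 289 in CD80lo cells of the knockout. Second probe sets of Actc1 and Ckm fell too (-3.41, adjusted p = 0.000192 and -1.42, adjusted p = 0.0155). That of Ckm passed the filter through the knockout CD80lo arrays alone, the group in which it is high, so its call adds no support. The part of smooth muscle cells and macrophages in these differences was not tested.

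**Figure D3:**
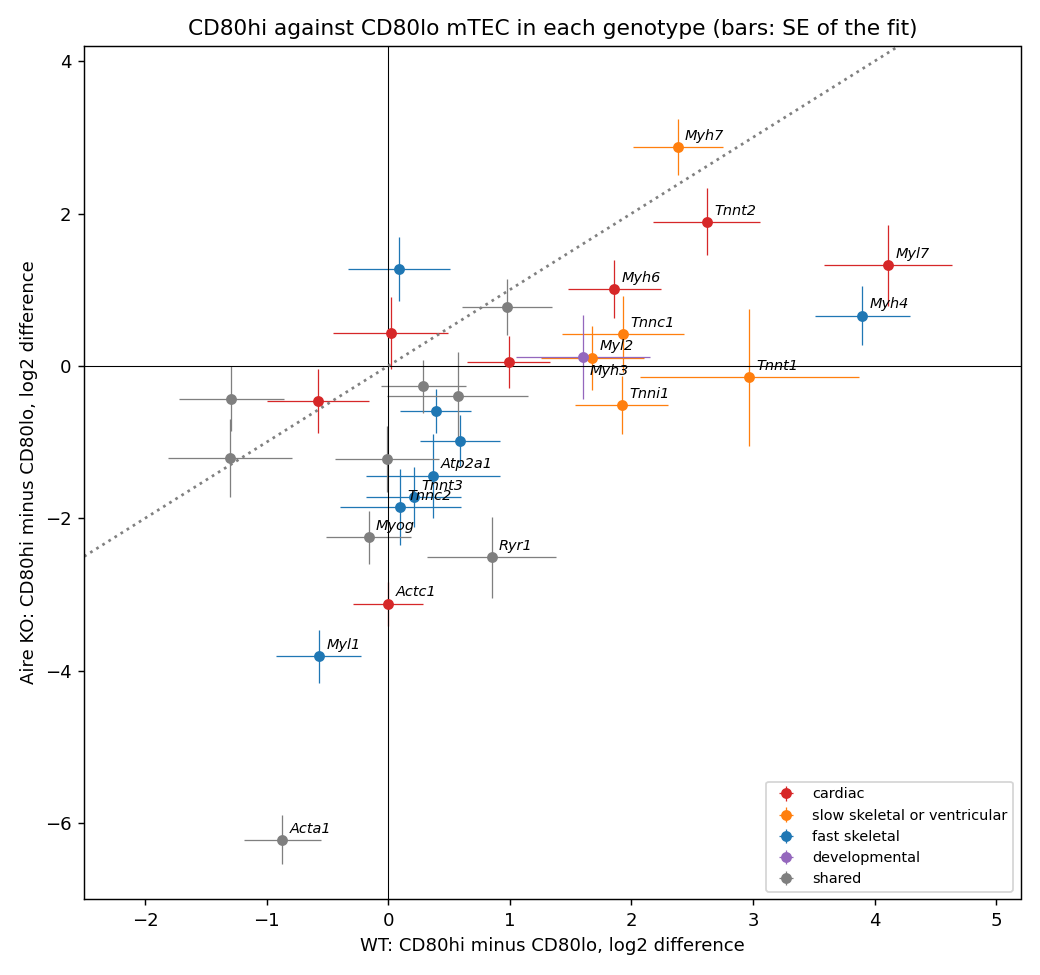
Log2 difference between CD80hi and CD80lo cells in wild type (x axis) and in the knockout (y axis) for the 30 tested genes, 1 point a gene, coloured by muscle type, with the standard error of the fit as bars and equal differences on the dotted diagonal. Acta1 (-0.87 and -6.22) and Myl1 (-0.57 and -3.81) lie far below the diagonal, and Tnnt2 (2.62 and 1.89) and Myh7 (2.38 and 2.87) lie near it.

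Whether the knockout difference was the same in both CD80 fractions was tested as an interaction over the 8 CD80-sorted arrays. For 6 of the 30 genes the knockout difference in CD80hi cells was below that in CD80lo cells, and for 0 above by limma. Over all tested probe sets 1.3% were below and 0% above. At limma's unadjusted p under 0.05, 15 genes were below and 0 above, a level at which no share of all probe sets is given. Acta1 had the largest interaction of the 30, -5.35 ± 0.45, adjusted p = 0.000103: it was lower in the knockout in CD80hi cells (-1.8 ± 0.32) and higher in CD80lo cells (3.55 ± 0.32). Actc1 followed the same signs (-1.84 ± 0.29 and 1.28 ± 0.29), with an interaction of -3.12 ± 0.41, adjusted p = 0.00255. The others were Ryr1 (-3.36 ± 0.75, adjusted p = 0.0446), Myl1 (-3.25 ± 0.5, adjusted p = 0.00578), Myh4 (-3.24 ± 0.55, adjusted p = 0.00902) and Tnni1 (-2.43 ± 0.54, adjusted p = 0.0446). Myog (-2.09 ± 0.49, adjusted p = 0.0571) and Myl7 (-2.8 ± 0.75, adjusted p = 0.1) missed the threshold. So did Myh7 (0.49 ± 0.53, adjusted p = 1), which had higher knockout means in both fractions. The median over the 30 genes was -1.5, beside 0.01 over all probe sets.

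Acta1, Actc1 and Myl1 kept the interaction without each of the 8 arrays. That of Tnni1 was lost without any of them (adjusted p up to 0.209), that of Myh4 without either wild-type CD80hi array or wild-type CD80lo array 2 (up to 0.0634), and that of Ryr1 without array 1 of either knockout group or any wild-type array (up to 0.188). Without array 1 of both knockout groups Tnni1, Myl1 and Ryr1 were lost (adjusted p over all settings up to 0.256, 0.054 and 0.374); a constant of 1 or no filter also ended Tnni1 and Ryr1, and quantile normalisation, a filter at 50 or the fit on the groups compared Ryr1. A second probe set of Actc1 gave -4.63 (adjusted p = 0.00264), one of Myl4 -2.22 (0.0485) and one of Ckm -2.35 (0.0377). That of Ckm passed the filter through the knockout CD80lo arrays alone, where it is high, so its call adds no support.

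Unfractionated mTEC were compared with the 3 other wild-type cell types. These comparisons share the 2 mTEC arrays. Against cTEC, 15 of the 30 genes were higher in mTEC and 1, Pgam2, was lower, beside 11.1% and 4.25% of all tested probe sets. Against dendritic cells 15 were higher and 0 lower by limma (17 and 1 at an unadjusted p under 0.05), beside 16.8% and 7.58%. Against macrophages 16 were higher and 0 lower (18 and 0 unadjusted), beside 14.6% and 7.37%. All 3 counts of higher genes include Myh6 and Myl2. These and Pgam2 passed the filter on low values only through groups in which they are high, so their part in the counts adds no support. The medians of the 30 differences were 1.18, 1.17 and 1.42, beside -0.03, 0.1 and 0.01 over all probe sets. Thymocyte markers moved the other way: 6 of 7 were lower in mTEC than in cTEC (median -3.05), 2 than in dendritic cells and 6 than in macrophages. Their sums were 322 and 296 in mTEC, 2180 and 4373 in cTEC, 1872 and 2071 in dendritic cells and 3319 and 1843 in macrophages. Of the macrophage markers, Marco, Mrc1 and Lyz2 (3 of 7) were higher in mTEC than in cTEC. The 7 summed to 733 and 841 against 120 and 221. Marco was also higher in mTEC than in dendritic cells and macrophages. The part of thymocytes and macrophages in the differences was not tested.

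The thin filament genes Acta1, Actc1, Tnni1, Tnnt2 and Tnnc1 were higher in mTEC in all 3 comparisons. Tnnt2 differed by 3.62, 2.94 and 4.29 against cTEC, dendritic cells and macrophages in that order, and Tnni1 by 3.34, 2.54 and 2.65. Acta1 differed by 2.89, 2.75 and 2.82, from mTEC signals of 42.5 and 38.8 against at most 2.1 elsewhere. Actc1 differed by 2.15, 1.34 and 1.98, and Tnnc1 by 2.21, 2.33 and 2.22. Tnni3 was higher than in cTEC alone (1.74 ± 0.42, adjusted p = 0.0111), and Tnnt1, Tnnt3 and Tnnc2 passed in none of the 3. Tnnt1 read 44.6 and 6.6 on the dendritic cell arrays and 166 and 6.2 on the macrophage arrays, where the epithelial markers summed to 1973 and 250. They summed to 94.6 and 69.6 on the dendritic cell arrays and 3471 and 3101 on the mTEC arrays. The part of epithelial RNA in the macrophage values was not tested.

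The myosin heavy chains Myh4, Myh7 and Myh3 were higher in mTEC in each comparison, and so was Myh6. Myh4 differed by 3.8, 5.37 and 5.62, Myh7 by 3.2, 1.5 and 3.02, Myh3 by 1.79, 2.42 and 2.25 and Myh6 by 2.12, 1.95 and 1.85. Myh6 passed the filter through the 2 unfractionated mTEC arrays alone, the group in which it is high, so its calls add no support. The light chains Myl7 (3.4, 2.99 and 3.74) and Myl2 (1.79, 2.04 and 2.05) were also higher in all 3. Myl2 passed the filter through mTEC array 2 and wild-type CD80hi array 2 alone, groups in which it is high, so its calls add no support. Myl4 (1.43 ± 0.34, adjusted p = 0.0066) and Mylpf (1.0 ± 0.33, adjusted p = 0.041) were higher than in dendritic cells, and Myl1 (1.09 ± 0.35, adjusted p = 0.0394) than in macrophages. A second probe set of Myl4 was higher in mTEC in all 3 (2.03, 2.51 and 1.48; adjusted p = 0.0012, 0.000126 and 0.00751), where the brightest passed against dendritic cells alone. Second probe sets of Actc1 (2.9, 2.42 and 2.42) and Actn3 (1.16, 2.58 and 1.92) were also higher in all 3. That of Actc1 has an i suffix, and that of Actn3 an f suffix, which marks probes shared with similar sequences. By its brightest probe set, Actn3 differed by 2.22, 5.13 and 4.6 and Des by 2.25, 1.79 and 1.63, all past the threshold. The smooth muscle markers summed to 1111 and 1110 on the mTEC arrays, 759 and 641 in cTEC, 80.4 and 161 in dendritic cells and 187 and 131 in macrophages. Of these 8 markers, 2 were called higher in mTEC than in cTEC, 8 than in dendritic cells and 7 than in macrophages. Des differed most from cTEC. The part of smooth muscle cells in the Des differences was not tested.

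Fewer genes of the other roles were called. Myog was higher in mTEC than in cTEC (1.26 ± 0.35, adjusted p = 0.0233), while Myod1 (0.28, 0.27 and 0.2) and Myf6 (-0.66, -0.51 and -0.25) passed in no comparison. Eno3 (1.59 ± 0.37, adjusted p = 0.0063) and Ckm (1.53 ± 0.43, adjusted p = 0.0182) were higher than in macrophages. Ryr1 read higher on both dendritic cell arrays than on the mTEC arrays, but its difference of -1.18 ± 0.53, adjusted p = 0.131 missed the threshold. Pgam2 was lower in mTEC than in cTEC, 1 and 4.7 against 17.7 and 23.2 (-1.76 ± 0.43, adjusted p = 0.0111). It passed the filter on low values through the 2 cTEC arrays alone, the group in which it is high, so the call supports nothing by itself. Casq1, Casq2, Ryr1 and Atp2a1 missed the threshold in the 3 comparisons, although a second probe set of Atp2a1 was higher in mTEC in all 3 (2.57, 1.46 and 2.62) and one of Ckm was higher than in dendritic cells (1.4, adjusted p = 0.00883). Both of these second probe sets have an f suffix.

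Without single arrays, calls were lost against cTEC for Myh3 (without any of the 4, adjusted p up to 0.227), Tnni3 (without cTEC array 2 or either mTEC array, 0.146), Myl2 (cTEC array 1 or mTEC array 2, 0.0923), Des (array 2 of either, 0.072), and Pgam2 and Myog (cTEC array 2 or mTEC array 1, 0.116 and 0.185). Against dendritic cells they were lost for Myh7 (dendritic array 2 or mTEC array 1, 0.0749), Mylpf (dendritic array 1 or either mTEC array, 0.254) and Des (array 2 of either, 0.132). Against macrophages they were lost for Myl1 and Ckm (any of the 4, 0.187 and 0.0869), Des (macrophage array 1 or either mTEC array, 0.195), and Myh3 and Eno3 (macrophage array 2, 0.053 and 0.0632). Quantile normalisation ended the calls of Myh3 and Myog against cTEC, of Mylpf and Des against dendritic cells and of Myl1, Des and Ckm against macrophages, with adjusted p up to 0.255 over the settings. A constant of 1 also ended that of Myh3 against cTEC, the fit without the filter those of Mylpf and Myl1, and the fit on the groups compared those of Myog, Mylpf and Myl1.

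**Figure D4:**
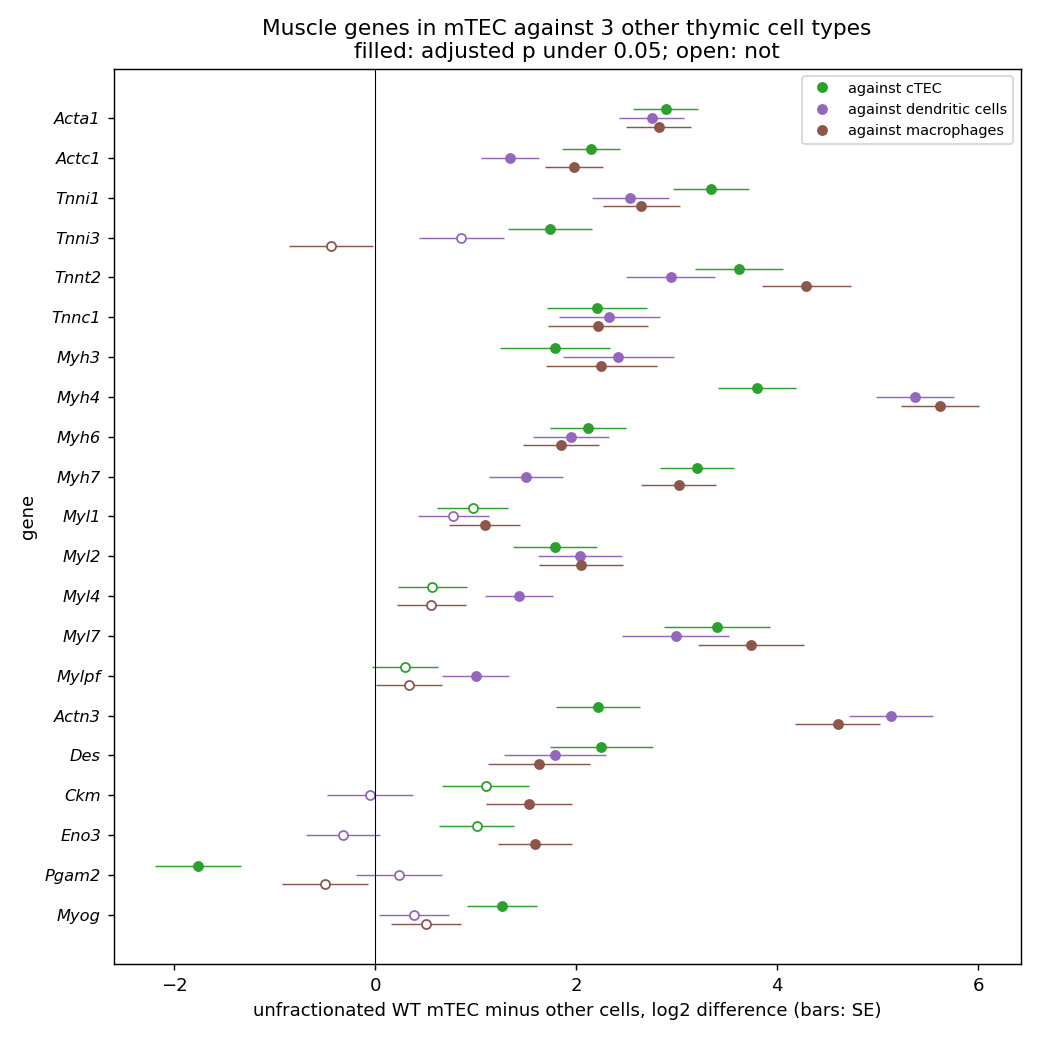
Log2 difference of unfractionated mTEC from cTEC, dendritic cells and macrophages (x axis) for the 21 genes called in at least 1 of these comparisons, with the standard error of the fit as bars and open points where the adjusted p missed the threshold. Myh4 (3.8, 5.37 and 5.62) and Actn3 (2.22, 5.13 and 4.6) lie far to the right, and Pgam2 (-1.76, 0.24 and -0.5) lies left of 0 against cTEC.

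Other muscle genes were read from a wider list of 101 sarcomere, membrane and calcium, enzyme and regulator genes, of which 74 were measured and 59 tested. From CD80lo to CD80hi cells in wild type 8 rose and 8 fell, beside 7.98% and 4.74% of all tested probe sets, and in the knockout 2 rose and 8 fell, beside 5.93% and 6.87%. Mybpc3, the cardiac myosin-binding protein C, rose in wild type (2.67 ± 0.52, adjusted p = 0.00311), as did Cacna1s, the voltage sensor that couples to Ryr1 (2.42 ± 0.51, adjusted p = 0.00532), and Fbp2, Ckb, Myom1, Pfkm, Chrng and Chrna1. The falls in wild type were of Tpm1, Tpm2, Tpm3, Pdlim3, Actn4, Six4, Id1 and Id3, several of them also used outside striated muscle. In CD80hi cells 4 were lower in the knockout and 0 higher by limma (8 and 2 at an unadjusted p under 0.05), beside 2.88% and 0.172%: Mybpc3 (-2.41 ± 0.52, adjusted p = 0.0184), Myom1 of the M-band (-1.81 ± 0.45, adjusted p = 0.0406), Chrna1, the acetylcholine receptor alpha subunit (-2.26 ± 0.39, adjusted p = 0.00455), and Fbp2, the muscle fructose bisphosphatase (-2.35 ± 0.54, adjusted p = 0.028). In CD80lo cells 2 were higher in the knockout and 0 lower (9 and 1 unadjusted), beside 0.279% and 0.0429%: the fast IIx heavy chain Myh1 (2.11 ± 0.41, adjusted p = 0.043), which read 55.2 and 68.9 against 9.3 and 12, and Twist1, a repressor of myogenesis (2.0 ± 0.38, adjusted p = 0.043). The interaction was below 0 for Myh1 (-2.58 ± 0.58, adjusted p = 0.0446) and Chrna1 (-3.32 ± 0.55, adjusted p = 0.00766), 2 of 59, beside 1.3%.

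Several of these genes lie side by side in the GRCm38.p6 annotation, in 6 pairs with at most 2 protein-coding genes between them. Their values are set side by side. Myh3 and Myh4, with Myh2 and Myh1 between them, are a pair in which Myh4 was higher in knockout than wild-type CD80lo cells (2.69 ± 0.39) and Myh3 differed by -0.56 ± 0.55. Myh6 and Myh7 are adjacent, and in the CD80hi knockout comparison Myh7 was higher by 1.59 ± 0.37 while Myh6 differed by -0.8 ± 0.38. Tnnt1 and Tnni3 are adjacent, with differences of 2.97 ± 0.9 and -0.58 ± 0.42 between wild-type CD80hi and CD80lo cells. Tnni1 and Tnnt2, with Lad1 between them, both rose in that comparison (1.92 ± 0.38 and 2.62 ± 0.44). The other pairs are Myf5 with Myf6 and Tnni2 with Tnnt3, each with at least 1 gene that was not tested.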

How the data were processed

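Affymetrix arrays measured RNA of FACS-sorted thymic cells, 2 arrays for each of 8 groups, which were taken from the sample titles. The deposited values cover 12488 probe sets, each with a linear intensity per array. The 2%-trimmed mean was 100.1 on every array. What software the authors used is not given in the sources used here. No further scaling was applied. Control probe sets (66) were left out. In the platform annotation 10833 of the rest had 1 gene symbol, 396 several and 1193 none.

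A constant of 4.8 (the 20th percentile) was added and log2 taken. The 9319 probe sets above 17.3 (the 40th percentile) on at least 2 arrays were tested. All comparisons were contrasts in a single limma fit over the 16 arrays (limma 3.58.1, R 4.3.3, the data.table package, version 1.17.8) with trended eBayes moderation (residual degrees of freedom 8, prior 5.97). P-values are 2-sided, with Benjamini-Hochberg adjustment over all tested probe sets and a threshold of 0.05. The steps were tested on simulated data. The number of arrays, 2 a group, limits the precision. The genes, the wider lists, the markers and the tests were chosen with earlier results of these data known. Signals on all arrays are given for each gene that passed in any comparison, for the 4 myogenic regulatory factors and for each gene with a group mean above 30.4, the median of all group means, and the others are given by range. From the wider lists, genes that passed are named. The 35 genes had 46 probe sets, and 11 of the genes had 2. For 5 genes the brightest has a suffix that marks probes shared with similar sequences (Actc1, Myh7, Tnnc2, Tnnt1, Atp2a1). Alternatives were quantile normalisation, constants of 1 and 17.3, no filter and a filter at 50, eBayes without trend, the groups compared alone, the mean over probe sets, a block for the replicate number and the fit without each array. Leaving out array 1 of both knockout groups was chosen after seeing the data.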

Additional observations from a re-analysis of the deposited data

Results flagged for a closer look

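The difference between knockout and wild type was not the same in CD80hi and CD80lo cells, by the interaction term in limma, for Acta1 (-5.35, from -1.8 in CD80hi and 3.55 in CD80lo cells), Actc1 (-3.12, from -1.84 in CD80hi and 1.28 in CD80lo cells), Tnni1 (-2.43, from -1.71 in CD80hi and 0.72 in CD80lo cells), Myh4 (-3.24, from -0.55 in CD80hi and 2.69 in CD80lo cells), Myl1 (-3.25, from -0.74 in CD80hi and 2.51 in CD80lo cells) and Ryr1 (-3.36, from -1.11 in CD80hi and 2.25 in CD80lo cells). It also differed for Myh1 (-2.58, from -0.47 in CD80hi and 2.11 in CD80lo cells) and Chrna1 (-3.32, from -2.26 in CD80hi and 1.06 in CD80lo cells) of the wider list. Values are log2 differences, and the 8 adjusted p-values are given in the report.

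The 18S ribosomal control, which no comparison uses, read 562 on knockout CD80hi array 1 and 1893 on knockout CD80lo array 1, above the 148 to 376 of the wild-type CD80-sorted arrays.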

How the results depend on the processing

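Of 79 calls of the 30 tested genes over the 8 comparisons, 48 were kept without each array in turn, 60 under the other settings, 47 under all of them, and in none did the difference change sign. When each array was left out in turn, the number of genes called ranged from 6 to 7 between wild-type CD80hi and CD80lo cells (9 with all arrays), from 0 to 4 for the knockout in CD80hi cells (5), from 1 to 2 in CD80lo cells (3), from 6 to 8 between the knockout fractions (9) and from 3 to 5 for the interaction (6). It ranged from 11 to 16 against cTEC (16), from 13 to 15 against dendritic cells (15) and from 12 to 14 against macrophages (16). The lone array left in a group was assumed to vary like the others. The fit on the groups compared called 15 genes between wild-type CD80hi and CD80lo cells and 3 for the knockout in CD80hi cells, where a constant of 1 called 2. Without array 1 of both knockout groups, chosen after seeing the data, 2 were called for the knockout in CD80hi cells and 3 for the interaction. The causes were not tested, except that fewer arrays enter the last fits.

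The replicate number as a block called 11, 7, 3, 11 and 7 genes in the 5 CD80-sorted comparisons and 18, 16 and 16 in the others. Same-numbered arrays correlated in their deviations at 0.279 to 0.526 among the unfractionated groups and at 0.0282 to 0.517 among the CD80-sorted groups. The 0.517 was between the 2 knockout groups, and the other CD80-sorted pairs of groups lay at 0.0282 to 0.17. The labels do not say whether same-numbered arrays were processed together. With 2 pairs, the numbers were taken as names only. Over all probe sets the wild-type CD80 comparison called 1186, and 2456 on the groups compared. The knockout in CD80hi cells called 284, 180 with a constant of 1 and 157 without array 1 of both knockout groups. In CD80lo cells it called 30, 18 with a constant of 1, 47 with a constant of 17.3, 16 on the groups compared and 51 with the block. The knockout fractions differed at 1193, 629 on the groups compared and 532 without array 1 of both. The interaction called 121, 44 with a constant of 1, 216 with a constant of 17.3, 77 on the groups compared and 44 without array 1 of both. The macrophage comparison called 2048, and 1360 on the groups compared. Leaving out single arrays gave 626 to 681 calls for wild type, 81 to 220 and 8 to 25 for the knockout in CD80hi and CD80lo cells, 744 to 900 within the knockout, 34 to 99 for the interaction and 860 to 946 against cTEC (1434 with all arrays). Signals near 17.3 limit what can be seen of Myh6, Pgam2, Tnnt3, Tnnc1, Myl2 and Ckm.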

Other observations

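In unfractionated mTEC, 9 of the 59 tested genes of the wider list were higher than in cTEC and 0 lower by limma (19 and 3 at an unadjusted p under 0.05), beside 11.1% and 4.25% of all tested probe sets. Of the 59, 16 were higher and 2 lower than in dendritic cells, beside 16.8% and 7.58%, and 16 higher and 2 lower than in macrophages, beside 14.6% and 7.37%. The 3 comparisons share the mTEC arrays. Differences from cTEC, dendritic cells and macrophages, in that order, were 2.19, 3.3 and 2.48 for Pdlim3, a Z-disc protein, 2.91, 3.18 and 3.19 for Fbp2, 1.95, 2.01 and 2.08 for Mybph, a myosin-binding protein, and 2.25, 1.81 and 1.77 for Chrna1. All of these passed. Ryr3, a second calcium release channel, differed by 0.9, 2.89 and 3.23 and passed against dendritic cells and macrophages, and Cacna1s differed by 3.05, 0.26 and 2.67 and passed against cTEC and macrophages. Ckb, the creatine kinase of brain, was lower in mTEC than in dendritic cells and macrophages (-1.71 and -1.59), Id2 lower than in dendritic cells (-1.41) and Adssl1 lower than in macrophages (-2.27).

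Within the knockout, 2 genes of the wider list rose from CD80lo to CD80hi cells. Cacna1s read 302 and 229 in CD80hi and 35.6 and 9.7 in CD80lo cells (3.47 ± 0.51, adjusted p = 0.000422), and Ryr3 209.9 and 282 against 19.8 and 59 (2.65 ± 0.43, adjusted p = 0.000919). Ryr1 fell there (-2.51 ± 0.53, adjusted p = 0.00563). Of the 8 that fell, Id1 and Id3, inhibitors of the myogenic factors, read 8.4 and 5.7 and 125 and 77.1 in CD80hi cells against 549.6 and 312 and 846 and 756 in CD80lo cells, and both also fell in wild type (-4.32 ± 0.38, adjusted p = 1.13e-05 and -2.41 ± 0.48, adjusted p = 0.00355). Myh1 (-2.79 ± 0.41, adjusted p = 0.000413), Chrna1 (-2.08 ± 0.39, adjusted p = 0.00243) and Tpm1, Actn4, Chrne and Pdlim3 were the other falls.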
